A study of Mus musculus with 16 samples.

Results

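Joins to a cut in Myc were mapped in 9 long genes, several of them known from fragile sites, among them Fhit, Wwox, Auts2, Foxp1, Alk, Arid1b, Agap1 and Accn1. A junction was counted where its deposited gene name was exactly that of the gene, and 2 junctions that carried a further name as well were not counted. The 9 genes held 121 of 33479 junctions outside chromosome 15, the chromosome of Myc, which is 0.361%. They are 9 of 6871 gene names found there, and 162 of those names had at least 10 junctions and were tested.

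Splenic IgM+ B cells of 129sv mice aged 6 to 8 weeks carried an array of 25 I-SceI target sites in Myc, in the first intron of a single allele, and a retrovirus supplied the I-SceI enzyme. High-throughput genome-wide translocation sequencing reads from this cut (the bait) into whatever sequence was joined to it (the prey). Under anti-CD40 (1 µg/mL) with IL4 (20 ng/mL), with infection at 24 h and harvest at day 4, there were WT cells (n = 4 libraries), ATM-/- cells (n = 3) and WT cells given KU55933, an inhibitor of the ATM kinase, at 10 µM from infection on (n = 3). Under an antibody to RP105 (2 µg/mL), a B cell surface protein, with infection at 48 h and harvest at day 5, there were libraries labelled WT (n = 3) and ATM-/- (n = 3). ATM is the kinase that signals DNA double-strand breaks. The labels do not say which libraries came from separate mice, so p-values measure the spread between libraries, which may be technical.

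Common fragile sites are chromosome regions that show gaps and breaks when DNA replication is slowed. Many lie in very long genes, where replication origins are sparse and where transcription of the gene can run into replication. FHIT and WWOX are textbook cases in human cells. A bait cut can join to a break in such a gene only when both are open in the same cell, and it joins to breaks of any other origin as well.

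A library held 4484 to 18264 junctions in all and 586 to 5604 outside chromosome 15. Junctions within 1 Mb of the cut made up 78.7% ± 2.43 (SD, n = 4) in WT, 54.6% ± 4.25 (n = 3) in ATM-deficient and 54.1% ± 1.53 (n = 3) in KU55933 libraries. Under RP105 the order was the opposite, with 64.2% ± 1.43 (n = 3) in libraries labelled WT and 87.3% ± 1.38 (n = 3) in those labelled ATM-deficient, so the RP105 groups are called by their labels. The RP105 labels may have been exchanged, which the labels alone do not settle, and the main ratios and counts are also given with these labels exchanged. By their read names the WT and ATM-deficient anti-CD40/IL4 libraries were sequenced on a 454 instrument (7 libraries) and the other 9 on a MiSeq. The comparison of KU55933 with WT and that of RP105 with anti-CD40/IL4 therefore cannot be told apart from the instrument.

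Joined sequences of the classical fragile-site genes Fhit and Wwox are printed here as examples that align without gaps, which not all junctions of the 9 genes do. Positions are on mouse build mm9. Each sequence is given 5′ to 3′ outward from the junction, with the 20 bases next to the junction in capitals.
Fhit, RP105 labelled ATM-deficient replicate 2, chr14:11071519-11071657, plus strand: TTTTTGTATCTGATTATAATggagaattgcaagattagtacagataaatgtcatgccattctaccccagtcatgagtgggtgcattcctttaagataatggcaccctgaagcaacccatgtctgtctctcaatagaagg
Wwox, KU55933 replicate 3, chr8:117721048-117721257, plus strand: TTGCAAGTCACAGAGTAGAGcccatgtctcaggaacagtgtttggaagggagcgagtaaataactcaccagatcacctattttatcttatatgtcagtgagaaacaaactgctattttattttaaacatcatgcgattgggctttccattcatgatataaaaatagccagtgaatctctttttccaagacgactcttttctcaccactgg
A and T made up 60.4% of the bases of the Fhit sequence and 61.4% of the Wwox sequence. Over all prey bases of a gene the share was 59.1% in Fhit and 53.5% in Wwox, against 53.3% for junctions of other genes and places outside chromosome 15. It was 48.1% in Arid1b, the lowest of the 9 genes. These shares describe the reads that were joined, not the genes.

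By the wider measure of length used here, the 9 genes together took up about as large a share of the junctions as of the genome. From the nearest junction before each gene to the nearest after it, their stretches summed to 9.09 Mb, which is 0.359% of the genome outside chromosomes 15 and Y. Their share of junctions, 0.361%, was close to this figure. The density was 13.3 junctions per Mb of these outer stretches, against 13.2 junctions per Mb of genome over 33450 junctions. Between the first and the last junction of each gene, over 7.10 Mb in all, it was 15.8 per Mb. These narrower stretches are 0.280% of the genome, so by this measure the share of junctions was the larger. The outer stretches take in flanks without a junction of the gene and so give the lower density. Relative to the genome density of the same group, the density over outer stretches was 1.07 in WT, 1.02 in ATM-deficient and 1.11 in KU55933 libraries, and 0.715 and 0.898 in the RP105 libraries labelled WT and ATM-deficient. Without the 6 RP105 libraries the genes held 100 of 25917 junctions, or 0.386%. Gene ends on mm9 were not used here, so a stretch is set by the junctions around the gene and is only an approximation of its length. For Accn1 the nearest junction after it carries the name Accn1 with a further name, so that outer stretch may end inside the gene.

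**Figure D1:**
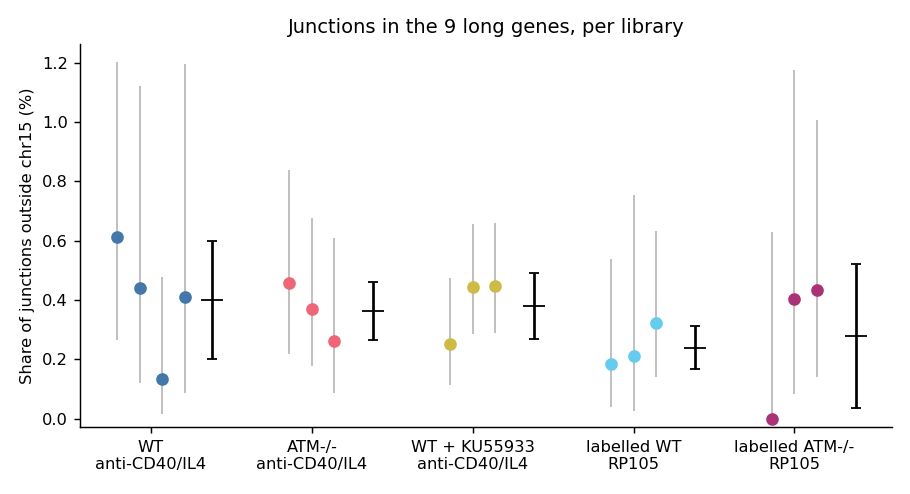
Share of junctions outside chromosome 15 that lay in the 9 genes, in percent, for each of 16 libraries in 5 groups. Coloured points are libraries with exact 95% binomial intervals in grey, and black marks are group means ± SD; the group ranges overlap, from 0 to 0.612%.

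No group stood apart in the pooled share. In WT cells given anti-CD40/IL4 the 4 libraries had 8, 4, 2 and 3 junctions in these genes, or 0.612%, 0.440%, 0.133% and 0.410% of junctions outside chromosome 15. The ATM-deficient libraries held 10, 10 and 5 (0.456%, 0.368% and 0.262%). With KU55933 there were 9, 24 and 25 (0.250%, 0.442% and 0.446%). The highest and the lowest share under anti-CD40/IL4 both belonged to WT libraries, so the other groups lay inside the WT range.

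Under RP105 the libraries labelled WT held 3, 2 and 8 junctions (0.185%, 0.209% and 0.321%), and those labelled ATM-deficient held 0, 3 and 5 (0, 0.403% and 0.433%). The library at 0 was the shallowest, and a count of 0 there allows a share of up to 0.512%. The ranges of these groups overlap as well. Libraries of the groups compared did not overlap for 0 of the 9 genes in ATM-deficient against WT (3.09% of all 162 genes), in the labels under RP105 (8.02%) and in RP105 against anti-CD40/IL4 in WT (7.41%). Binomial intervals and limits of a 0 cover counting error only.

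Mean shares were 0.399% ± 0.198 (SD, n = 4) in WT, 0.362% ± 0.0975 (n = 3) in ATM-deficient and 0.379% ± 0.112 (n = 3) in KU55933 libraries, and 0.238% ± 0.0724 (n = 3) and 0.279% ± 0.242 (n = 3) in RP105 libraries labelled WT and ATM-deficient. The ATM-deficient mean was 0.908 times the WT mean and the KU55933 mean 0.951 times. Under RP105 the ratio of the ATM-deficient to the WT label was 1.17, and labelled WT libraries under RP105 stood at 0.597 times the WT libraries under anti-CD40/IL4. With the RP105 labels exchanged these ratios were 0.855 and 0.699. Each of the differences was smaller than the SD of at least 1 of the groups compared. Within sequencing runs that held both genotypes, ATM-deficient minus WT was 0.236 and -0.149 percentage points with anti-CD40/IL4, and -0.00759 and 0.112 with RP105. The sign thus differed between runs in both stimuli. No p is given for the pooled share, since the genes were chosen with earlier results of these data known. By instrument the share was 0.373% (42 of 11275) on the 454 and 0.356% (79 of 22204) on the MiSeq.

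**Figure D2:**
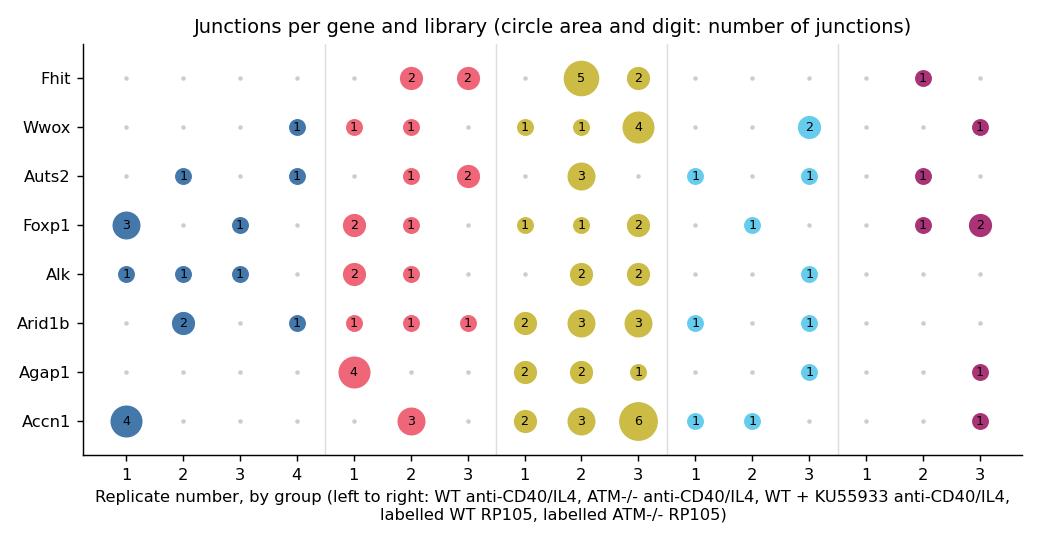
Number of junctions in each of 8 of the genes (rows) in each of the 16 libraries (columns, by group and replicate). Circle area and digit give the number and a grey dot marks 0; the highest value is 6, for Accn1 in KU55933 replicate 3.

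Gene by gene, edgeR's quasi-likelihood test with Benjamini-Hochberg adjustment over 162 genes called 0 of the 9 genes in any of 5 comparisons. Comparing ATM-deficient with WT libraries, both given anti-CD40/IL4, it called 0 genes of any kind (0%), while 8 of the 162 had an unadjusted p under 0.05 and DESeq2 called 1. For KU55933 against WT it called 1 of 162 (0.617%), the IgE switch region Se, which was lower; DESeq2 called 0, and 23 genes had an unadjusted p under 0.05. For the labels under RP105 it called 0 (0%), DESeq2 called 0, and 4 genes had an unadjusted p under 0.05. RP105 against anti-CD40/IL4 in WT called 3 (1.85%), the switch regions Se, Sg1 and Smu, all lower under RP105, and the interaction of genotype and stimulus called 0 (0%), where 12 genes had an unadjusted p under 0.05 and DESeq2 called 0. With the RP105 labels exchanged edgeR called 0, 4 and 0 genes in these last 3 comparisons, and 0 of the 9.

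The lowest adjusted p of the 9 genes in edgeR was 0.290 for KU55933 against WT, 0.659 for ATM-deficient against WT, 0.634 for the labels under RP105, 0.443 for RP105 against anti-CD40/IL4 and 0.556 for the interaction. The median log2 fold change of the 9 genes was -0.05 for ATM-deficient against WT and -0.24 for KU55933 against WT, beside 0.00 and 0.48 over all 162 genes. Under RP105 it was 0.05 beside 0.00 for the labels. For RP105 against anti-CD40/IL4 it was -0.21 beside -0.15. A gene at 0 in a group has a fitted value that depends on the prior count; with such genes set at their bound, or at 0 where the bound has no direction, the medians of the 9 genes were -0.05, -0.24, 0.00 and -0.21, beside 0.00, 0.021, 0.00 and 0.00 over all genes. The medians also depend on scale: TMM factors moved the median of all genes to 0.65, 1.16, -0.65 and -0.06 in the same order of comparisons.

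Fhit, a hydrolase of diadenosine polyphosphates that is lost in many tumours, covered the longest stretch, 1553 kb (chr14:10409260-11962298). Its 12 junctions came from 5 libraries: 2 and 2 in ATM-deficient replicates 2 and 3, 5 and 2 in KU55933 replicates 2 and 3, and 1 in RP105 labelled ATM-deficient replicate 2. All 4 WT libraries and all 3 RP105 libraries labelled WT were at 0, while ATM-deficient replicate 1 and KU55933 replicate 1 were at 0 as well, so the groups overlap. The ATM-deficient share was 4 of 6818 (0.0587%) and the KU55933 share 7 of 14642 (0.0478%), both under the 0.0673% that a count of 0 allows in WT, and a difference was not detectable at this depth. In edgeR the adjusted p was 0.659 and 0.393. Its junctions were the sparsest of the 9 genes, 7.08 per Mb (exact Poisson 95% interval 3.54 to 12.7), an interval below the genome's 13.2 that holds the 9.86 of chromosome 14. The KU55933 junctions lay between 32.4% and 100% of the stretch, 6 of 7 on the minus strand.

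Wwox, an oxidoreductase with WW domains, had 12 junctions over 764 kb (chr8:117016291-117780291), 6 on each strand, in 8 libraries of all 5 groups. There was 1 in WT replicate 4, 1 each in ATM-deficient replicates 1 and 2, 1, 1 and 4 with KU55933, 2 in RP105 labelled WT replicate 3 and 1 in RP105 labelled ATM-deficient replicate 3. Its density of 14.4 per Mb (7.19 to 25.8) held the genome value. On the log2 scale KU55933 stood 0.69 above WT (SE 1.34, edgeR adjusted p = 0.861). The 2 junctions of RP105 labelled WT replicate 3 lay 950 bases apart at the far end of the stretch.

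Auts2, a nuclear protein linked to neurodevelopment, had 11 junctions over 1059 kb (chr5:131916473-132975840) in 8 libraries, with 1 each in WT replicates 2 and 4, 1 and 2 in ATM-deficient replicates 2 and 3, 3 in KU55933 replicate 2, 1 each in RP105 labelled WT replicates 1 and 3, and 1 in RP105 labelled ATM-deficient replicate 2. No group stands out in these counts. The density was 9.44 per Mb (4.53 to 17.4). Both RP105 junctions of the WT label began at the same base and strand, the 1 position of 120 in these genes (0.833%) that was found in more than 1 library. Outside chromosome 15 as a whole, 736 of 32430 positions (2.27%) recurred across libraries. The joined sequences are printed because they show the shared start and the different far ends.
Auts2, RP105 labelled WT replicate 1, chr5:131916340-131916473, minus strand: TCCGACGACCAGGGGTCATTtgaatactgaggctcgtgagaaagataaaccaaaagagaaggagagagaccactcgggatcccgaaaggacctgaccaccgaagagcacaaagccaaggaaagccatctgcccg
Auts2, RP105 labelled WT replicate 3, chr5:131916233-131916473, minus strand: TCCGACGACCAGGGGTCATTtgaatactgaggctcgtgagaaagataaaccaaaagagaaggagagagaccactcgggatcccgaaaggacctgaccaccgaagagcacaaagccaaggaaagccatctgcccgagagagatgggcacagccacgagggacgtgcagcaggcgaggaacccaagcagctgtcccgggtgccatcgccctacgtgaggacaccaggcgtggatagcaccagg

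Foxp1, a forkhead transcription factor needed in early B cell development, had 15 junctions over 471 kb (chr6:98887129-99358373) in 10 libraries of all 5 groups. WT replicates 1 and 3 had 3 and 1, ATM-deficient replicates 1 and 2 had 2 and 1, the KU55933 libraries had 1, 1 and 2, RP105 labelled WT replicate 2 had 1, and RP105 labelled ATM-deficient replicates 2 and 3 had 1 and 2. The groups overlap throughout. The log2 fold change was -0.92 (SE 1.19, adjusted p = 0.829) for ATM-deficient against WT, -1.50 (SE 1.11, adjusted p = 0.443) for KU55933 against WT and -1.84 (SE 1.45, adjusted p = 0.564) for RP105 against anti-CD40/IL4, all in edgeR. WT replicate 1 holds 3 of the 4 WT junctions, and without it these values were 0.42, -0.16 and -0.50. Without RP105 labelled WT replicate 2, which holds the 1 junction of its group, the last was -4.02, a fitted value for a group at 0. The density of 29.7 per Mb (16.2 to 49.8) stood beside 11.6 for chromosome 6.

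Alk, a receptor tyrosine kinase known for oncogenic fusions in lymphoma, had 11 junctions over 576 kb (chr17:72327588-72903562), 1 each in WT replicates 1, 2 and 3, 2 and 1 in ATM-deficient replicates 1 and 2, 2 and 2 in KU55933 replicates 2 and 3, and 1 in RP105 labelled WT replicate 3. The counts did not set any group apart, and KU55933 against WT gave -1.15 on the log2 scale (SE 1.10, adjusted p = 0.649, edgeR). The positions were less even: the 3 ATM-deficient junctions lay between 81.4% and 100% of the stretch, all on the plus strand, while the 3 of WT lay between 0% and 54.2% and the 4 with KU55933 between 14.2% and 59.4%. With so few junctions this was not tested. The density was 17.4 per Mb (8.33 to 31.9), beside 16.1 for chromosome 17.

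**Figure D3:**
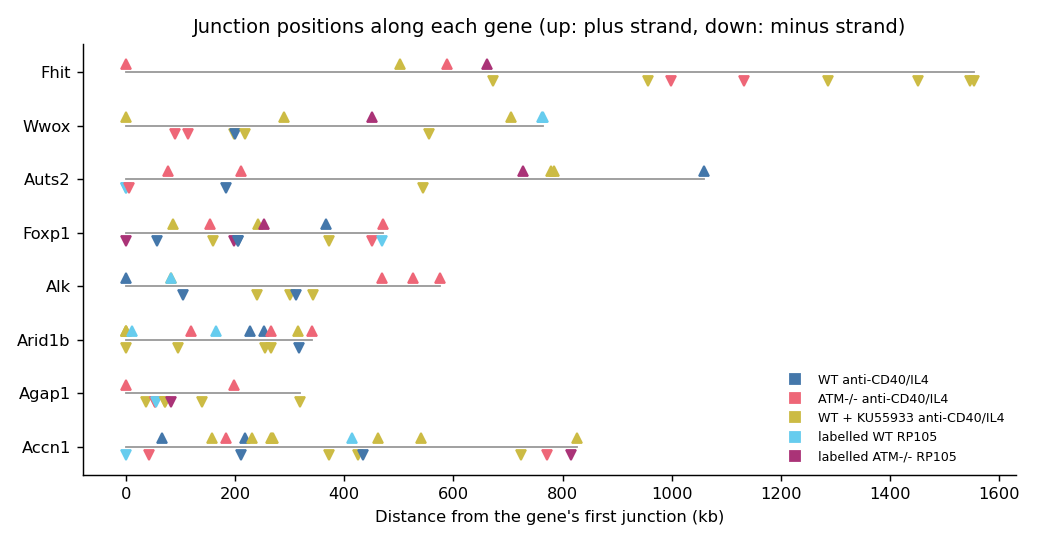
Position of each junction along 8 of the genes, as distance in kb from the gene's first junction. Triangles pointing up are plus-strand and those pointing down minus-strand junctions, coloured by group; most stand alone, and the Fhit stretch, 1553 kb, is the longest.

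Arid1b, a DNA-binding subunit of the BAF chromatin remodelling complex, held the largest close group of junctions in the 9 genes. Its 16 junctions lay in 10 libraries over 341 kb (chr17:4996206-5336956). WT replicates 2 and 4 had 2 and 1, each ATM-deficient library had 1, the KU55933 libraries had 2, 3 and 3, RP105 labelled WT replicates 1 and 3 had 1 each, and the RP105 libraries labelled ATM-deficient had none (limit 0.121%). Shares in the KU55933 libraries were close to each other, at 0.0547% ± 0.00105 (SD, n = 3), and lay inside the WT range of 0 to 0.220%. The log2 fold change of KU55933 against WT was -0.32 (SE 1.11, adjusted p = 0.879, edgeR).

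The 4 junctions at the first end of Arid1b lay within 844 bases and came from the 3 KU55933 libraries, 2 from replicate 2 and 1 from each of the others. The first 3 of these lay within 70 bases, and the fourth 774 bases on. The next junction was 11.2 kb away. They are printed because the second begins 8 bases inside the first and the third reads back over the same stretch on the other strand.
Arid1b, KU55933 replicate 2, chr17:4996206-4996302, plus strand: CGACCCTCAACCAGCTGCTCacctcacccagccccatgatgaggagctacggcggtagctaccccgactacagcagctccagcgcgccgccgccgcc
Arid1b, KU55933 replicate 2, chr17:4996214-4996280, plus strand: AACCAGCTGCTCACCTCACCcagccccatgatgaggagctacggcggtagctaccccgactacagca
Arid1b, KU55933 replicate 3, chr17:4996177-4996276, minus strand: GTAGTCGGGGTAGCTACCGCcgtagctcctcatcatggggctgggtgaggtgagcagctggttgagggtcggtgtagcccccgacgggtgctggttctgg
Arid1b, KU55933 replicate 1, chr17:4997050-4997205, plus strand: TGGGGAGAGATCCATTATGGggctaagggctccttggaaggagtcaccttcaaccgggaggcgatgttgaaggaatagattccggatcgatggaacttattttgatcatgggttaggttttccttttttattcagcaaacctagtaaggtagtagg
A and T made up 30.9%, 38.8% and 35% of the first 3 sequences and 54.5% of the fourth. The Fhit and Wwox sequences printed above are richer in A and T, but each is a single example. Over all its prey bases Wwox was at 53.5%, close to the 53.3% outside the 9 genes. The other 12 junctions of Arid1b were scattered, with 1 further pair 807 bases apart from a KU55933 and an ATM-deficient library. At 44.0 per Mb (24.6 to 72.6) Arid1b had the highest density of the 9 genes, beside 16.1 for chromosome 17.

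Agap1, a GTPase-activating protein for Arf proteins, had 11 junctions over 318 kb (chr1:91408007-91726287), the shortest stretch. ATM-deficient replicate 1 held 4, the KU55933 libraries 2, 2 and 1, RP105 labelled WT replicate 3 held 1 and RP105 labelled ATM-deficient replicate 3 held 1, while all 4 WT libraries and the other 2 ATM-deficient libraries were at 0. The ATM-deficient count thus came from 1 library, while all 3 KU55933 libraries lay above all 4 WT libraries. Of the 9 genes 2, Agap1 among them, had such non-overlapping libraries for KU55933 against WT, as did 19.8% of all 162 genes. The 5 KU55933 junctions are 0.0341% and the 4 ATM-deficient ones 0.0587%, under the 0.0673% that a 0 allows in WT, and no fold is given (edgeR adjusted p = 0.431 and 0.659). Of the 11 junctions, 9 were on the minus strand. The density was 31.4 per Mb (15.1 to 57.8), beside 12.7 for chromosome 1. Of the 11 sequences 5 began in a CA or TG repeat, meaning at least 5 such dinucleotides in a row within the first 20 prey bases, and all 5 came from MiSeq libraries.

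Accn1, a subunit of acid-sensing ion channels now named Asic2, had the most junctions, 21 in 8 libraries over 827 kb (chr11:80805363-81632086). WT replicate 1 held 4 and the other 3 WT libraries 0, ATM-deficient replicate 2 held 3 and the others 0, the KU55933 libraries held 2, 3 and 6, RP105 labelled WT replicates 1 and 2 held 1 each, and RP105 labelled ATM-deficient replicate 3 held 1. In WT and in ATM-deficient cells all junctions thus came from 1 library, whereas with KU55933 each library had some. The log2 fold change was -0.95 (SE 1.16, adjusted p = 0.824) for ATM-deficient against WT, -0.24 (SE 0.95, adjusted p = 0.892) for KU55933 against WT and -1.02 (SE 1.26, adjusted p = 0.740) for RP105 against anti-CD40/IL4 in edgeR. Without WT replicate 1 these turned to 3.07, 3.78 and 3.0, fitted values that rest on the prior count because the other WT libraries are at 0. The density of 24.2 per Mb (14.8 to 37.4) stood beside 21.99 for chromosome 11. Of the 21 sequences 4 began in a CA or TG repeat, all in MiSeq libraries.

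Repeat starts in the other 7 genes numbered 0. Over the 9 genes there were 0 in 42 junctions on the 454 and 9 in 79 (11.4%) on the MiSeq. Outside these genes the shares were 0.721% of 11233 and 6.40% of 22125 junctions, so the gap between instruments was present in the rest of the genome as well.

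**Figure D4:**
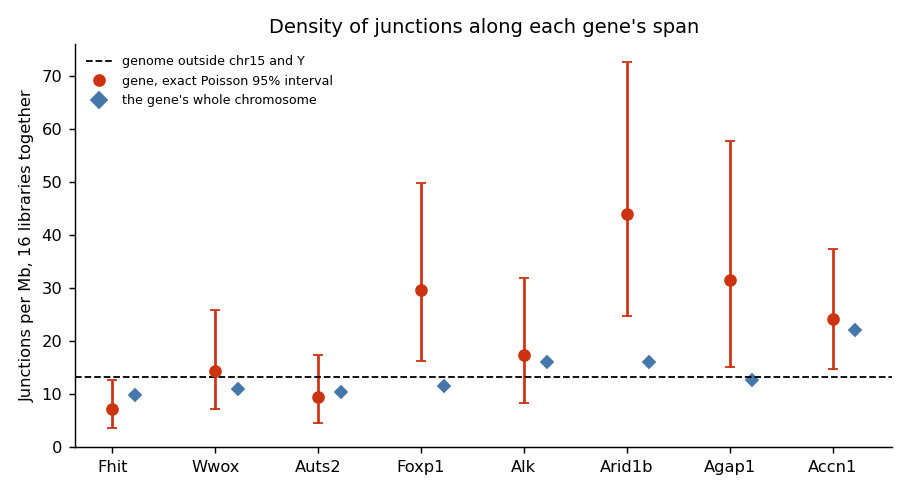
Junctions per Mb between the first and last junction of 8 of the genes, all 16 libraries together, with exact Poisson 95% intervals (red). Blue diamonds give the gene's whole chromosome and the dashed line the genome outside chromosomes 15 and Y, 13.2 per Mb. The Fhit interval lies below the line and those of Foxp1, Arid1b, Agap1 and Accn1 above it. Of the latter, only Arid1b stays above when measured over outer stretches. The Fhit and Accn1 intervals hold the values of their own chromosomes.

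The 9 genes did not share 1 density. The interval held the genome value in 4 genes, Wwox, Auts2 and Alk among them, lay below it in Fhit, and lay above it in Foxp1, Arid1b, Agap1 and Accn1. Against single chromosomes, the Fhit interval held the 9.86 of chromosome 14 and the Accn1 interval the 21.99 of chromosome 11. Those of Foxp1, Arid1b and Agap1 lay above their chromosomes. Over the outer stretches the interval held the genome value in 7 genes, with Fhit (3.61 to 12.2) still below it and Arid1b (17.4 to 49.4) above it. The lower bounds of Foxp1 (12.97), Agap1 (11.5) and Accn1 (12.8) then lay under 13.2, so that these genes lay above the genome only by the narrower measure. Without the RP105 libraries the values were 6.44 in Fhit, 24.2 in Foxp1, 38.2 in Arid1b, 25.1 in Agap1 and 21.7 in Accn1, with a genome density of 10.2. Measured over the outer stretches in all 16 libraries, the densities were 6.99, 23.2, 30.4, 22.9 and 20.7 in the same order. The genome density for these values is 13.2. Every gene of the set has at least 11 junctions, which a short gene reaches only at a high density, so the way the genes were chosen favours high values in short genes. The intervals take junctions as independent.

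**Figure D5:**
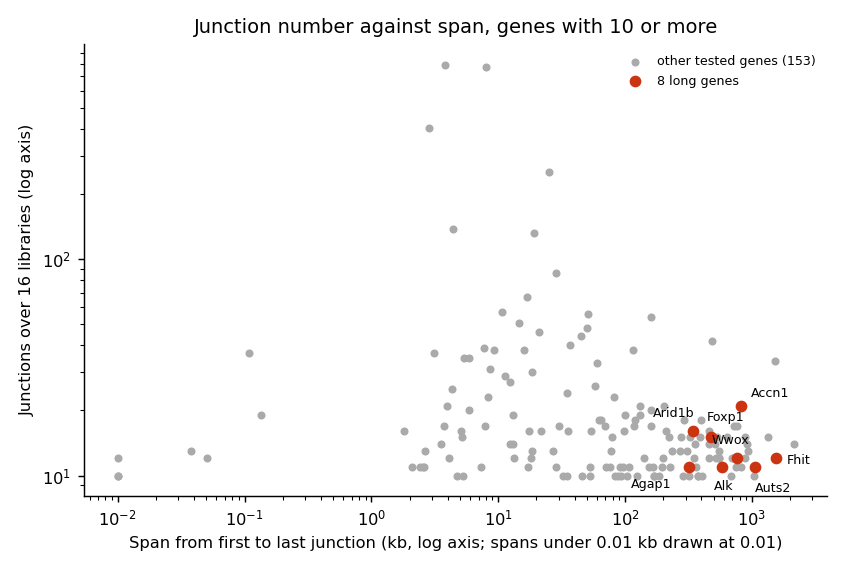
Junctions over 16 libraries against the distance from first to last junction (kb, both axes on log scales), for gene names with at least 10 junctions. The 8 long genes (red) lie toward the right between 318 and 1553 kb with 11 to 21 junctions, while the names with most junctions, up to 795, span far less.

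Compared with the other 153 tested genes, the 9 genes had more scattered junctions. They were chosen as long genes, so this contrast follows at least in part from the choice. Their median distance from first to last junction was 764 kb against 70.8 kb, and the median gap between neighbouring junctions 53.5 kb against 0.563 kb. The densest 1 kb held a median of 13.3% of a gene's junctions against 33.3%. The median number of junctions was 12 against 15. Long genes outside the set could be as scattered. Cntnap2 had a median gap of 96.8 kb and 7.14% in its densest 1 kb, and Cdh13 68.5 kb and 7.69%. Ebf1 was more clustered, with 19.8 kb and 40%. All 9 genes spanned at least 300 kb, but so did 37 other tested genes, and 4 others had a span of at least 1 Mb, as did 3 of the 9, Fhit and Auts2 among them. Of the 121 junctions 16 (13.2%) lay within 1 kb of another in the same gene, in 5 genes: 6 in Arid1b, 4 in Agap1, and 2 each in Wwox, Auts2 and Foxp1. In Agap1 these were 2 junctions of ATM-deficient replicate 1, 65 bases apart, and 2 from different KU55933 libraries, 3 bases apart. All 4 align with gaps, and the ATM-deficient pair shares its far end, so their exact positions are less certain. In Foxp1 they were 2 of WT replicate 1, 926 bases apart. In strand the set was even, with 61 plus and 60 minus (50.4% plus, against 49.8% outside chromosome 15).

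A further list of 50 long or fragile-site genes held 298 junctions (0.890%), in 46 of its members. Among those with most junctions were Rbfox1 with 15, Cntnap2 with 14, Cdh13 and Rora with 13 each, Ebf1 and Pard3b with 10 each, and Csmd1 with 9. The 7 with at least 10 were tested, and edgeR called 0 of 7 in each comparison. The pooled share of the whole list was 0.776% ± 0.135 (SD, n = 4) in WT, 1.04% ± 0.356 (n = 3) in ATM-deficient and 1.03% ± 0.266 (n = 3) in KU55933 libraries, and 0.498% ± 0.118 (n = 3) and 0.616% ± 0.400 (n = 3) in RP105 libraries labelled WT and ATM-deficient. The ATM-deficient mean of this list was above WT by less than the SD of the ATM-deficient libraries, and KU55933 by less than its own. Both were above WT by more than the SD of the WT libraries, and neither gap was tested. The RP105 libraries labelled WT were below WT under anti-CD40/IL4 by more than the SD of either group. With the RP105 labels exchanged, the mean of 0.616% ± 0.400 (n = 3) lay below WT by less than its own SD. Neither gap was tested, and neither can be told apart from the instrument and the culture times. The difference between lists was not tested.

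Among 29 gene names with at least 30 junctions, those whose share per library was most like the pooled share of the 9 genes were Arid5a (Spearman's rho 0.55), Pim1 (0.50) and Il4ra (0.46), over 16 libraries that share depth and instrument. With counts this low these are a description.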

How the data were processed

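Junction lists of 16 libraries on mm9, the build per the submitters' processing notes, were read as deposited. Genomic DNA was cut with HaeIII and amplified by nested PCR per the labels' protocols. Neither aligner nor filters are given in the sources used here. The authors' gene names were used as deposited. Per the file headers some files hold a PCR count per junction, which was 0 to 5 for the 42 junctions here that have one and entered no test. The alignment score of the prey, per the file headers, was described only.

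Of 141227 lines, 1 broken record was joined, and 3 mitochondrial and 56 repeated rows were dropped, leaving 141167 junctions. The 9 genes and the lists were chosen with earlier results of these data known. The genes named are the 9, up to 8 of the further list by count, up to 3 most like the pooled share, and up to 5 past the threshold per direction. Counts per gene name were compared with edgeR 4.0.16 (quasi-likelihood, R 4.3.3), all libraries in 1 fit, junctions outside chromosome 15 as library size, at least 10 junctions, adjusted p threshold 0.05. The fit was tested on simulated data. The standard error (SE) is the fold change over the square root of F. Intervals are exact Clopper-Pearson or Poisson at 95%, and a count of 0 is bounded at 3 junctions. Density between the first and last junction leaves out 1 end junction per gene, while density over outer stretches counts all junctions. DESeq2 1.42.0, TMM, other filters, blocks and denominators were tried. Per-gene results of 1 of the 9 genes and of 1 gene of the further list are not reported here, while pooled values include them. The RefSeq name Asic2 came from another build, whose coordinates were not used.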

Additional observations from a re-analysis of the deposited data

Results flagged for a closer look

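Of 7 values in the group of 4 WT libraries checked for an outlying library, 2 had one. Wwox in WT replicate 4 was at 0.137% of junctions outside chromosome 15, which is 1 junction, with the other 3 libraries at 0. Accn1 in WT replicate 1 was at 0.306%, which is 4 junctions, with the other 3 at 0. A gene with junctions in 1 library of 4 always shows such a gap, so the usual chance rate of this rule does not hold for counts this low.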

How the results depend on the processing

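None of the 9 genes was called in any comparison under an alternative that tested it. With at least 20 junctions per gene only Accn1 of the 9 was tested. The log2 ratios of mean pooled shares moved by less than the spread between libraries under all 58 other settings and all 27 with 1 library left out. That spread was 0.82 to 1.33 log2 units, so large moves pass this rule. The main values were -0.14 (ATM-deficient against WT), -0.07 (KU55933 against WT), 0.23 (labels under RP105) and -0.74 (RP105 against anti-CD40/IL4). With all junctions but those within 1 Mb of the cut as denominator they were -0.34, -0.26, 0.61 and -1.14. Exchanging the RP105 labels turned 0.23 to -0.23. With 1 library left out the log2 ratio ranged from -0.43 to 0.14 for ATM-deficient against WT, from -0.36 to 0.21 for KU55933 against WT, from -0.24 to 0.81 for the labels under RP105 and from -1.03 to -0.46 for RP105 against anti-CD40/IL4.

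The number of genes called among all tested did change. For ATM-deficient against WT it was 0, but 1 with DESeq2, 1 with at least 20 junctions per gene and 2 with only the groups compared in the fit. For KU55933 against WT it was 1, but 10 with TMM factors, 4 with at least 20 junctions, and 0 with DESeq2, with no filter, with only the groups compared or without chromosome 12, where the 1 gene called lies. It ranged from 0 to 4 with 1 library left out. For RP105 against anti-CD40/IL4 it was 3, but 9 with at least 20 junctions and 0 without chromosome 12, which removes the 3 genes called. It ranged from 3 to 6 with 1 library left out, 6 without RP105 labelled WT replicate 3. The cause of the other changes was not tested.

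Fold changes of single genes turned sign in places, none of them called. Accn1 for ATM-deficient against WT went to 3.40 with the sequencing run as a block, and TMM factors moved Arid1b to 0.44 and Accn1 to 0.54 for KU55933 against WT. With the RP105 labels exchanged Foxp1 was at 0.40 for RP105 against anti-CD40/IL4. With 1 library left out, Foxp1 ranged from -1.78 to 0.42 and Accn1 from -3.96 to 3.07 for ATM-deficient against WT. For KU55933 against WT the ranges were -0.76 to 3.78 for Accn1, -0.87 to 0.80 for Arid1b and -0.020 to 3.02 for Wwox. For RP105 against anti-CD40/IL4 Accn1 ranged from -1.63 to 3.0. The ends near 3 or beyond leave a group at 0 and rest on the prior count.

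No pairing of libraries by replicate number was seen, since 2 of 30 correlations between same-numbered libraries were over 0.1 (range -0.17 to 0.15). With counts this low such correlations can stay weak even where libraries are paired, so a pairing could be missed. With the replicate block the calls were 0, 1, 0 and 3 in the 4 comparisons and 0 for the interaction. Leaving out repeat starts and exchanging the RP105 labels were chosen after seeing the data. Counts of 0 to 6 per gene and library limit every comparison of single genes.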
